A study of Mus musculus with 15 samples.

Results

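Foxo knockout islet cells with high aldehyde dehydrogenase activity (ALDH+) were compared with Foxo knockout islet cells with low activity (ALDH-). The account covers all genes other than the sorted enzyme itself and the ribosomal and respiratory complex families. The comparison took every library labelled as a triple knockout of Foxo1, Foxo3 and Foxo4, which were 5 ALDH+ and 5 ALDH- libraries, 10 of the 15 libraries of the series. The other 5 libraries, 3 ALDH- and 2 ALDH+, came from control mice that the labels call triple heterozygous and the paper wild-type. These libraries entered only the check of the labels and one test of a difference between genotypes. All mice were on a mixed 129JC57BL/6 background. The knockout mice carried floxed Foxo alleles. Knockout and control mice carried a Rosa26-Tomato reporter, whose red fluorescence (RFP) marks cells in which the cre transgene was once active. In replicates 1 to 3 of each knockout group the cre transgene was RIP-Cre, driven by an insulin promoter and active in differentiated β cells. In replicates 4 and 5 it was Pdx-Cre, active from pancreatic precursors onward, so that RFP can also mark other islet and exocrine cells. Transcripts of other islet hormones were far higher in the Pdx-Cre ALDH- libraries than in the rest, as given below. Acinar transcripts were highest in replicate 5 of both groups. The sorted cells are therefore not called β cells here. The methods give an age of 6 months and 10 to 20 animals per genotype for the Rip-cre sort, and do not say how animals were divided among libraries. The p-values therefore measure the spread between these libraries, which may be partly technical.

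Aldehyde dehydrogenases oxidize aldehydes to acids. Aldh1a3, one of the retinaldehyde dehydrogenases, makes retinoic acid. Its activity can be read in living cells with aldefluor, a substrate that turns into a fluorescent product trapped in the cell. Foxo proteins are transcription factors that insulin signalling keeps out of the nucleus. In β cells they help to hold the differentiated state under metabolic stress, and β cells that lose it can express genes of precursors or of other islet hormones. Islets hold insulin-producing β cells beside α cells (glucagon), δ cells (somatostatin), PP cells (pancreatic polypeptide) and a few ghrelin cells.

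Values are FPKM, fragment numbers scaled by gene length and by sequencing depth, as the authors deposited them. Fragments worked out from the confidence intervals summed to between 8495735 and 9990535 per ALDH- library (median 9497326) and between 8200298 and 9730667 per ALDH+ library (median 8508998). These sums leave out *Ins1*, which the tables mark as too deep to estimate in all 10 libraries, *Ins2* in ALDH- replicate 2, and *Rn45s*, the ribosomal RNA precursor, in ALDH+ replicates 1, 2 and 4, where it is listed at 0 against 7152 to 15763 FPKM in the other 7 libraries. In the other 9 libraries *Ins2*, an insulin gene, was listed at 246963 to 360501 FPKM. *Foxo1* was at 2.45, 3.51, 2.54, 4.24 and 0.0925 FPKM across the ALDH- libraries, against 2.47, 1.15, 3.44, 0.523 and 1.98 FPKM across the ALDH+ libraries, below the 12.04 to 20.1 FPKM of the control libraries. *Foxo4* did not exceed 0.0669 FPKM in any knockout library. *Foxo3* was at 9.78 to 30.6 FPKM in knockout libraries and at 12.7 to 23.0 FPKM in control libraries, so that the level over the whole gene did not show its deletion.

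The label of the sort was visible in *Aldh1a3*, which lies on chromosome 7 from 73535778 to 73572363 (mm9, as the tables list it). It was at 0.490, 4.09, 3.95, 0.506 and 3.87 FPKM across the ALDH- libraries, against 22.1, 35.2, 50.7, 33.4 and 76.9 FPKM across the ALDH+ libraries. The groups did not overlap (log2 fold change 3.74, standard error 0.44, adjusted p = 0.015 in limma with Benjamini-Hochberg adjustment), and the log2 difference was 3.40 in RIP-Cre and 4.25 in Pdx-Cre libraries. Leaving out ALDH+ replicate 2, 3 or 4 ended the call, with log2 fold changes of 3.78, 3.63 and 3.84 and adjusted p of 0.068, 0.099 and 0.052. Because cells were sorted on the activity of this enzyme family, the level of *Aldh1a3* is a check and not a finding.

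Across all genes, few differences passed the adjusted threshold. With 5 libraries in each group, a gene that misses the threshold is not shown to be unchanged. Of 11215 genes with a mean of at least 1 FPKM, 1 passed an adjusted p of 0.05, and it was *Aldh1a3* (0.00892% of genes tested). At an unadjusted p under 0.05 (the unadjusted mark), 516 genes were higher in ALDH+ cells (4.6%) and 699 were lower (6.23%). The groups did not overlap in 80 genes that were higher (0.713%) and 124 that were lower (1.11%). Genes at the unadjusted mark are not calls, and counts of them only describe a group of genes beside the same share of all genes. The ribosomal and respiratory complex genes left out of this account were 257 genes with a median log2 fold change of -0.43, and 118 of the 699 lower genes were among them. Without them and *Aldh1a3*, 511 genes were higher and 581 lower at the unadjusted mark among 10957, and the median log2 fold change was 0.0016.

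**Figure D1:**
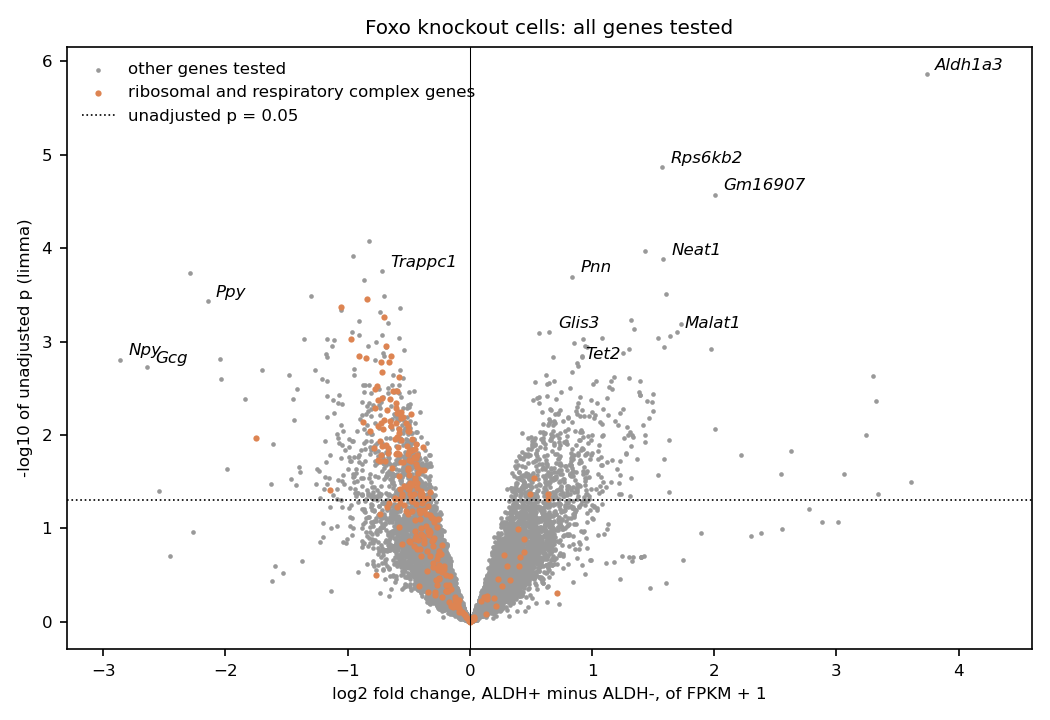
Each point is 1 of the 11215 genes tested, with the log2 fold change of FPKM + 1 (ALDH+ minus ALDH-, Foxo knockout cells, 5 libraries each) on the horizontal axis and -log10 of the unadjusted limma p on the vertical axis, and ribosomal and respiratory complex genes in orange. *Aldh1a3* stands alone at the upper right with a log2 fold change of 3.74, and the orange points lie mostly on the lower side.

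Genes of both directions ranked next, and none of them passed the threshold. Those that were higher in ALDH+ cells are given first. *Rps6kb2*, on chromosome 19 from 4156976 to 4163245, encodes S6 kinase 2, an effector of mTOR signalling. It was at 7.98, 5.43, 4.43, 3.63 and 3.63 FPKM across the ALDH- libraries, against 14.3, 14.1, 24.8, 15.3 and 14.5 FPKM across the ALDH+ libraries. Every ALDH+ library lay above every ALDH- library (log2 fold change 1.58, SE 0.23, adjusted p = 0.077), by 1.43 on the log2 scale in RIP-Cre and 1.79 in Pdx-Cre libraries. *Gm16907* was at 2.09, 1.89, 2.75, 1.86 and 0.812 FPKM across the ALDH- libraries, against 6.62, 6.74, 17.3, 9.65 and 13.98 FPKM across the ALDH+ libraries, again without overlap (log2 fold change 2.01, SE 0.32, adjusted p = 0.1). *2900005J15Rik* was at 8.18, 2.81, 6.80, 2.86 and 2.06 FPKM across the ALDH- libraries, against 15.1, 11.8, 16.5, 9.46 and 10.6 FPKM across the ALDH+ libraries, and those groups did not overlap either (log2 fold change 1.43, SE 0.26, adjusted p = 0.21). These symbols carry no function in the tables.

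*Neat1*, the long noncoding RNA around which nuclear paraspeckles form, lies on chromosome 19 from 5842301 to 5845478. It was at 112, 56.6, 133, 88.7 and 47.1 FPKM across the ALDH- libraries, against 274, 147, 404, 189 and 272 FPKM across the ALDH+ libraries. All ALDH+ libraries exceeded all ALDH- libraries (log2 fold change 1.58, SE 0.29, adjusted p = 0.21). *Malat1*, a long noncoding RNA of nuclear speckles, was at 1420.1, 577, 1338, 1299.5 and 298 FPKM across the ALDH- libraries, against 2484, 1801, 4027, 2379 and 3347 FPKM across the ALDH+ libraries. Its groups did not overlap, and the lowest ALDH- library was replicate 5 (log2 fold change 1.69, SE 0.39, adjusted p = 0.26). *Pnn* encodes pinin, a protein of nuclear speckles that takes part in splicing, and was at 22.5, 30.01, 19.8, 20.1 and 15.1 FPKM across the ALDH- libraries, against 40.2, 37.1, 44.2, 34.7 and 34.2 FPKM across the ALDH+ libraries. It too was without overlap (log2 fold change 0.84, SE 0.16, adjusted p = 0.23).

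Of the remaining top-ranked genes on this side, *AI450353*, *9030625A04Rik* and *Caml* had log2 fold changes of 1.61, 1.73 and 1.34 (adjusted p = 0.26 for each). *Caml*, whose product sits in the endoplasmic reticulum membrane and helps to insert tail-anchored proteins, was at 7.35, 14.04, 8.74, 2.02 and 1.43 FPKM across the ALDH- libraries, against 16.3, 14.7, 18.8, 13.6 and 10.4 FPKM across the ALDH+ libraries, so that its groups overlapped through ALDH- replicate 2. *Snora70*, a small nucleolar RNA, showed a log2 fold change of 1.32 from only 1 to 9 fragments per library. Its FPKM values are large because the transcript is short, and they carry little precision.

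On the lower side, 2 of the 10 genes ranked first serve the respiratory chain although their symbols lie outside the families left out. *Usmg5*, a small protein associated with the mitochondrial ATP synthase, was at 55.2, 62.3, 59.6, 53.1 and 37.98 FPKM across the ALDH- libraries, against 38.3, 37.5, 33.7, 19.7 and 21.9 FPKM across the ALDH+ libraries, where ALDH- replicate 5 lay inside the range of the ALDH+ libraries (log2 fold change -0.82, SE 0.15, adjusted p = 0.21). *Fam36a*, an assembly factor of cytochrome c oxidase, was at 67.4, 81.3, 66.3, 60.7 and 73.6 FPKM across the ALDH- libraries, against 44.5, 45.6, 33.6, 40.5 and 25.8 FPKM across the ALDH+ libraries. Its groups did not overlap (log2 fold change -0.87, SE 0.17, adjusted p = 0.23). *Trappc1*, a subunit of the TRAPP complexes that tether vesicles at the Golgi, was at 264, 247, 359.7, 287 and 324 FPKM across the ALDH- libraries, against 164, 166, 165, 198 and 191 FPKM across the ALDH+ libraries. It likewise did not overlap (log2 fold change -0.72, SE 0.14, adjusted p = 0.23).

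*Hint1*, a histidine triad nucleotide-binding protein, was at 212, 195, 241, 177 and 188 FPKM across the ALDH- libraries, against 140.2, 137, 100.2, 136 and 105 FPKM across the ALDH+ libraries. All ALDH+ libraries were below all ALDH- libraries (log2 fold change -0.70, SE 0.14, adjusted p = 0.26). *Tmem66*, a regulator of store-operated calcium entry, was at 149, 148, 179, 221 and 192 FPKM across the ALDH- libraries, against 108, 114, 93.2, 139 and 138 FPKM across the ALDH+ libraries, without overlap (log2 fold change -0.57, SE 0.12, adjusted p = 0.26). *Mcee*, the methylmalonyl-CoA epimerase of propionate breakdown, was at 29.6, 52.3, 42.9, 25.6 and 14.03 FPKM across the ALDH- libraries, against 19.99, 22.1, 8.33, 6.15 and 8.36 FPKM across the ALDH+ libraries. ALDH- replicate 5 lay within the ALDH+ range there (log2 fold change -1.30, SE 0.27, adjusted p = 0.26). *Gm5617* was lower without overlap at a log2 fold change of -0.96, *2010003O02Rik* had -1.06 with 1 ALDH+ library inside the ALDH- range, and *2400009B08Rik* had -2.29 at a median of 2 fragments per library. The last of the 10, *Ppy*, is described with the islet hormones. After a trend with gene length was removed from each library, 6 of these 10 genes had log2 fold changes over 1.5 times smaller, namely *Usmg5* at -0.33, *Hint1* at -0.34, *Trappc1* at -0.43, *Fam36a* at -0.44, *2010003O02Rik* at -0.55 and *Gm5617* at -0.62.

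**Figure D2:**
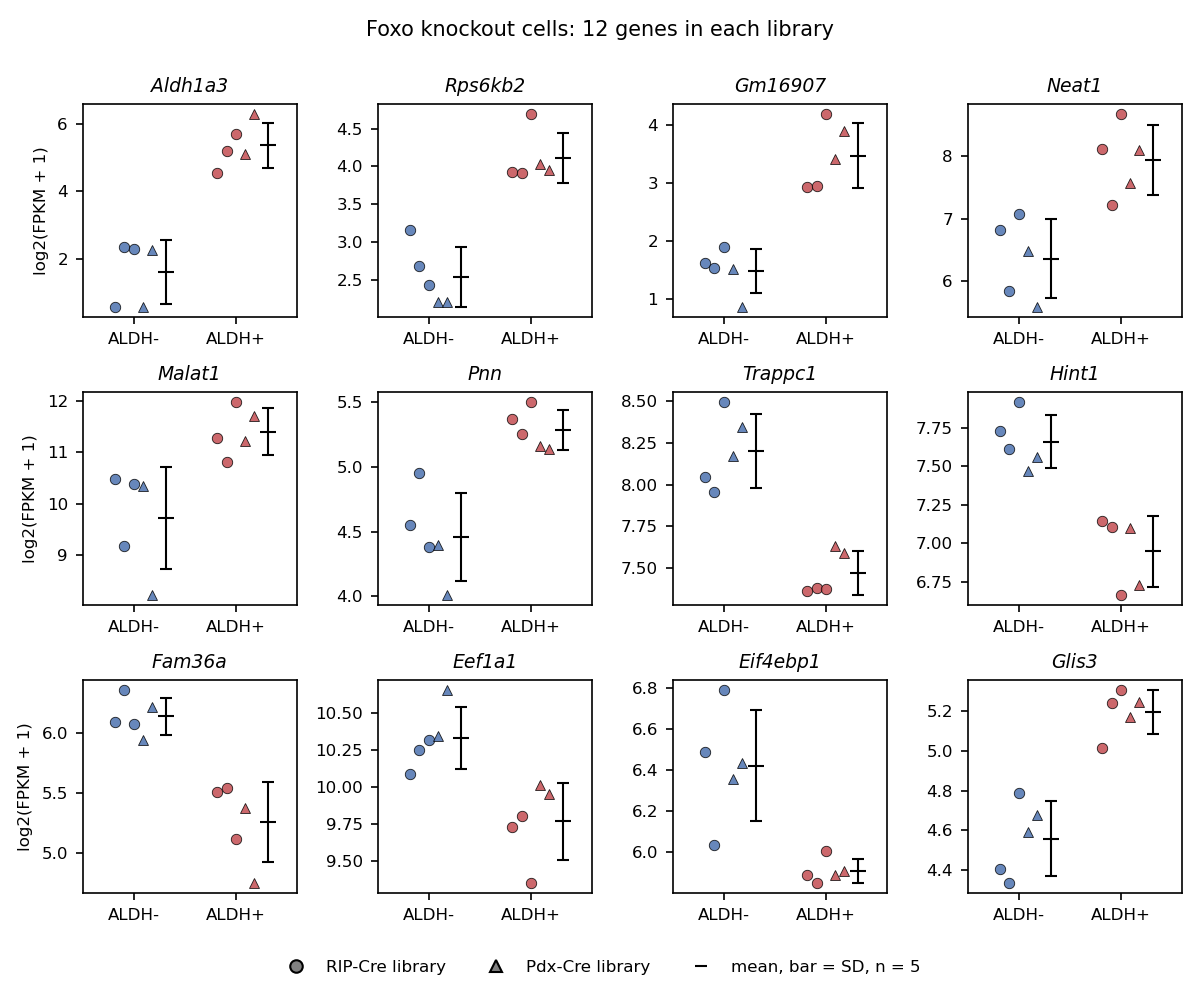
Log2(FPKM + 1) of 12 named genes in each of the 10 libraries, ALDH- in blue and ALDH+ in red, RIP-Cre as circles and Pdx-Cre as triangles, with the mean and SD of 5 libraries in black. In *Rps6kb2*, *Neat1*, *Pnn* and *Glis3* the ALDH+ points lie wholly above the ALDH- points, and in *Trappc1*, *Hint1*, *Fam36a*, *Eef1a1* and *Eif4ebp1* wholly below, while only *Aldh1a3* passed the threshold.

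Among RNA-processing genes more were higher than lower in ALDH+ cells at the unadjusted mark. The gene lists used from here on were chosen with earlier results of these data known, so their counts describe and do not test. Of 68 splicing factors tested, 16 were higher and 3 lower at the unadjusted mark, against 4.6% and 6.23% of all genes, and the median log2 fold change was 0.19 against -0.007 over all genes. In 7 of them the groups did not overlap on the higher side and in 2 on the lower side (0.713% and 1.11% of all genes). *Prpf4b*, a kinase of the spliceosome, was at 33.97, 32.8, 30.4, 30.8 and 28.2 FPKM across the ALDH- libraries, against 44.4, 46.1, 48.2, 43.6 and 48.7 FPKM across the ALDH+ libraries, without overlap (log2 fold change 0.57, SE 0.13, adjusted p = 0.26). The 3 lower members, *Snrpd2*, *U2af1* and *Snrpe*, were named after their values were seen, and encode small core or auxiliary proteins of the spliceosome. The higher count was 7 without both replicate 5 libraries and 8 without ALDH- replicate 5 and ALDH+ replicate 3. After the length trend was removed it was 13. In these settings the lower count was 3, 2 and 3. Of all genes, 3.30% were higher and 4.57% lower at the mark in the first of these settings, 2.74% and 3.65% in the second, and 4.86% and 4.37% after the length trend was removed.

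Long noncoding RNAs retained in the nucleus, listed together with host genes of small nucleolar RNAs, had a median log2 fold change of 0.42 over 23 genes tested. At the unadjusted mark 9 were higher and 0 lower (4.6% and 6.23% of all genes), and 3 did not overlap (0.713% of all genes on the higher side), which were *Neat1*, *Malat1* and *Meg3* (the last named after its values were seen). The median was 0.18 in RIP-Cre and 0.71 in Pdx-Cre libraries. The count of 9 became 7 without both replicate 5 libraries and 4 without ALDH- replicate 5 and ALDH+ replicate 3, where the shares of all genes were 3.30% and 2.74%, and the median became 0.19 and 0.28. Chromatin modifiers, the enzymes and remodellers that act on histones and DNA, had a median of 0.17 over 79 genes. At the unadjusted mark 9 were higher and 0 lower (4.6% and 6.23% of all genes). *Tet2*, which oxidizes methylated cytosine, was at 14.2, 12.5, 9.53, 13.3 and 6.50 FPKM across the ALDH- libraries, against 19.4, 16.3, 25.9, 18.3 and 24.1 FPKM across the ALDH+ libraries, without overlap (log2 fold change 0.88, SE 0.22, adjusted p = 0.27). *Atrx*, a remodeller of heterochromatin, had values that overlapped (log2 fold change 0.55, SE 0.19, adjusted p = 0.38). The chromatin count became 2 without both replicate 5 libraries, 3 without ALDH- replicate 5 and ALDH+ replicate 3, and 3 after the length trend was removed. The shares of all genes were then 3.30%, 2.74% and 4.86%, so that the 79 chromatin genes were near the background in each of these settings.

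Transcription factors of the β cell had a median log2 fold change of 0.20 over 25 genes. At the unadjusted mark 5 were higher and 1 lower (4.6% and 6.23% of all genes). The higher count was 3 without both replicate 5 libraries (3.30% of all genes) and 3 without ALDH- replicate 5 and ALDH+ replicate 3 (2.74%). *Glis3*, a zinc-finger factor needed for insulin gene expression, was at 20.2, 19.2, 26.6, 23.1 and 24.6 FPKM across the ALDH- libraries, against 31.3, 36.9, 38.5, 35.01 and 36.9 FPKM across the ALDH+ libraries. All ALDH+ libraries exceeded all ALDH- libraries (log2 fold change 0.65, SE 0.15, adjusted p = 0.26). *Mlxipl*, the glucose-responsive factor ChREBP, was at 39.6, 24.1, 29.9, 26.8 and 8.82 FPKM across the ALDH- libraries, against 77.01, 55.6, 117, 42.95 and 16.5 FPKM across the ALDH+ libraries. Its Pdx-Cre replicate 5 libraries were the lowest of their groups and the groups overlapped (log2 fold change 1.12, SE 0.32, adjusted p = 0.33). The other members at the unadjusted mark, named after their values were seen, were *Rfx7*, *Neurod1* and *Rfx6* on the higher side and *Insm1* on the lower. The β-cell markers *Pdx1* and *Nkx6-1* had log2 fold changes of 0.023 (standard error 0.24) and 0.13 (standard error 0.15), and the maturity markers *Ucn3* and *Slc2a2* of -0.053 (0.34) and -0.15 (0.29). *Slc2a2*, the glucose transporter GLUT2, ranged from 104 to 227 FPKM in the 6 RIP-Cre libraries and from 8.61 to 24.6 FPKM in the 4 Pdx-Cre libraries, so that it followed the cre driver and not the ALDH group.

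Genes of hormone processing and secretory maturity had a median of -0.053 over 35 genes. At the unadjusted mark 0 were higher and 4 lower (4.6% and 6.23% of all genes). In each of the same settings with fewer libraries 2 were lower, against 4.57% and 3.65% of all genes. *Npy*, a neuropeptide that β cells express early in life, was at 65.4, 34.1, 16.7, 12.2 and 23.6 FPKM across the ALDH- libraries, against 2.61, 0.796, 2.94, 0 and 23.4 FPKM across the ALDH+ libraries. In 4 of 5 ALDH+ libraries it was below every ALDH- library, and ALDH+ replicate 5 was the exception (log2 fold change -2.86, SE 0.72, adjusted p = 0.26). Without ALDH+ replicate 5 the log2 fold change was -3.73 with an adjusted p of 0.013. *Cd24a*, a surface glycoprotein of immature and other islet cells, was at 19.2, 20.6, 23.2, 89.9 and 52.1 FPKM across the ALDH- libraries, against 15.7, 6.36, 13.96, 15.5 and 26.7 FPKM across the ALDH+ libraries, with overlapping groups (log2 fold change -1.17, SE 0.27, adjusted p = 0.26). The other lower members, *Pcsk1n* and *Scg5*, are granule proteins that act on prohormone convertases and were named after their values were seen. Genes of the exocytosis machinery had a median of 0.069 over 33 genes, with 3 higher and 1 lower (4.6% and 6.23% of all genes). The active-zone scaffold *Pclo* showed a log2 fold change of 0.53 (adjusted p = 0.32) and *Rimbp2*, which links calcium channels to granules, of 0.63 (adjusted p = 0.33). Ion channels had a median of 0.19 over 32 genes, with 2 higher and 1 lower (4.6% and 6.23% of all genes). Among the higher was the potassium channel gene *Kcnh6* at 0.87 (adjusted p = 0.34).

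Hormone genes of other islet cells had a lower median in ALDH+ cells, by more in Pdx-Cre than in RIP-Cre libraries. Of 10 markers tested, 0 were higher and 6 lower at the unadjusted mark (4.6% and 6.23% of all genes). Both without the replicate 5 libraries and after the length trend was removed, 1 was higher and 3 lower (4.57% and 4.37% of all genes lower). Their median log2 fold change was -1.33 over all libraries, -0.090 in RIP-Cre and -3.36 in Pdx-Cre libraries. Summed over the 15 listed markers, ALDH- libraries held 2579 to 3934 FPKM with RIP-Cre and 21275 to 36263 FPKM with Pdx-Cre, and ALDH+ libraries held 1728 to 3185 FPKM with RIP-Cre and 1829 to 2387 FPKM with Pdx-Cre. Fewer cells of a type and less RNA per cell cannot be told apart in such bulk samples.

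*Gcg*, the glucagon gene, was at 667, 867, 684, 17334 and 9533 FPKM across the ALDH- libraries, against 1016, 154, 259.8, 268 and 598 FPKM across the ALDH+ libraries. The Pdx-Cre libraries ALDH- replicates 4 and 5 stood far above the rest (log2 fold change -2.64, SE 0.68, adjusted p = 0.29). *Ppy*, the pancreatic polypeptide gene, was at 423, 206, 259, 3608 and 1098 FPKM across the ALDH- libraries, against 183, 97.4, 108, 127 and 199 FPKM across the ALDH+ libraries. All ALDH+ libraries were below all ALDH- libraries (log2 fold change -2.15, SE 0.45, adjusted p = 0.26), by -1.16 on the log2 scale in RIP-Cre and -3.63 in Pdx-Cre libraries. The differences between cre drivers of -3.92 for *Gcg* and -2.47 for *Ppy* did not pass (adjusted p = 0.96 and 0.98, limma interaction term). *Sst*, the somatostatin gene, was at 909, 984, 509.7, 9792 and 8245 FPKM across the ALDH- libraries, against 774, 506, 1297, 752 and 1156 FPKM across the ALDH+ libraries. *Pyy*, the peptide YY gene, was at 1434, 333, 613, 4841 and 1889.7 FPKM across the ALDH- libraries, against 633, 274, 269, 191 and 244 FPKM across the ALDH+ libraries. Both were again highest in the Pdx-Cre ALDH- libraries.

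*Ghrl*, the ghrelin gene on chromosome 6 from 113666112 to 113669874, was at 0, 0, 0, 42.2 and 47.7 FPKM across the ALDH- libraries, against 0, 0.280, 0, 0.304 and 0.298 FPKM across the ALDH+ libraries. It was listed at 0 in the RIP-Cre ALDH- libraries and had 140 and 153 fragments in the Pdx-Cre ALDH- libraries, against 0 to 1 fragment in each ALDH+ library. Its ALDH effect differed between cre drivers, by -5.26 on the log2 scale (standard error 0.57, adjusted p = 0.0044, limma interaction term). *Rbp4*, a retinol carrier also abundant in δ cells, was at 36.4, 22.3, 16.96, 209 and 188 FPKM across the ALDH- libraries, against 29.7, 13.2, 32.5, 18.3 and 15.7 FPKM across the ALDH+ libraries, and its difference of -3.44 between cre drivers did not pass (adjusted p = 0.13). Without ALDH- replicate 5 the adjusted p of *Ghrl* was 0.077, and with a pseudocount of 0.1 it was 0.89.

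Among all 11215 genes 3 differed between cre drivers in their ALDH effect (0.0267%), against 492 at an unadjusted p under 0.05. The other two were *Snora2b* and *Scarna3b*, small RNAs of the nucleolus and Cajal body. Each was listed at 0 in 8 of the 10 libraries and had 1 fragment in ALDH+ replicates 4 and 5, which their short length turned into 94.5 and 92.7 FPKM for *Snora2b* and 45.5 and 44.6 FPKM for *Scarna3b*. Single fragments carry no usable difference. *Gm10941* was at 15.3, 14.7, 17.3, 22.2 and 22.3 FPKM across the ALDH- libraries, against 12.8, 9.40, 8.08, 0.577 and 2.26 FPKM across the ALDH+ libraries. It was lower without overlap, and its difference between cre drivers of -2.75 did not pass (adjusted p = 0.27).

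**Figure D3:**
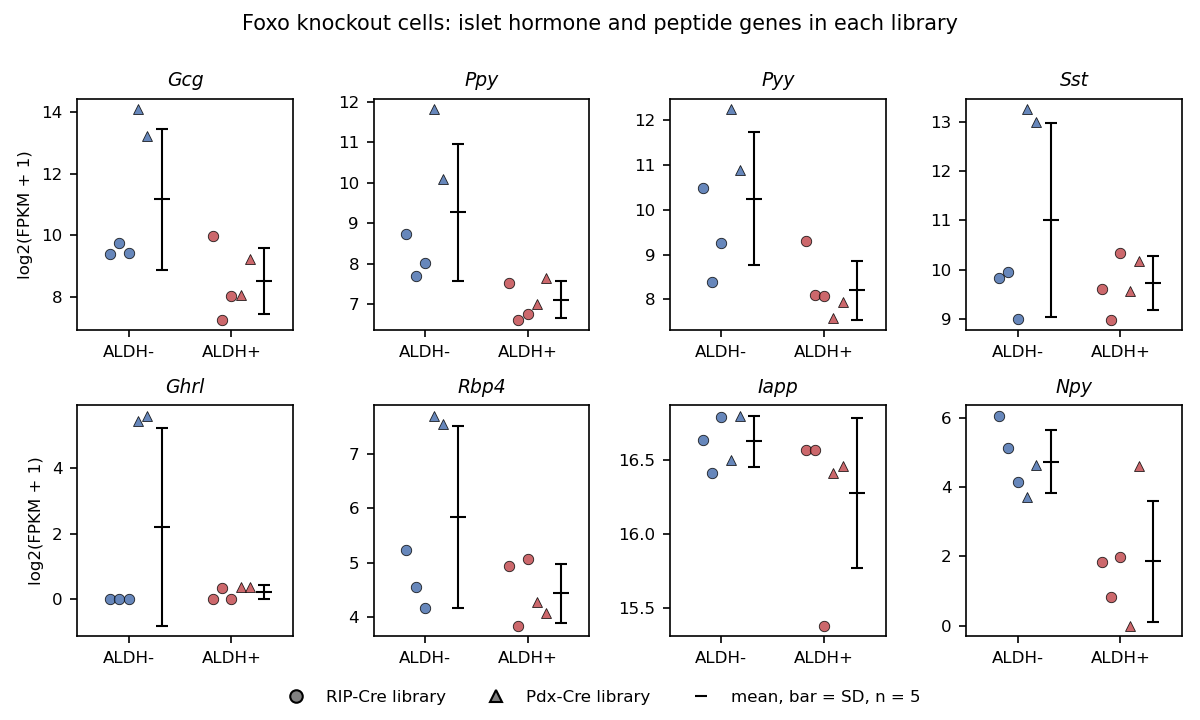
Log2(FPKM + 1) of 8 islet hormone and peptide genes in each of the 10 libraries, with group colours, cre driver symbols, means and SD (n = 5) as in the plot of 12 genes. For *Gcg*, *Sst*, *Ghrl* and *Rbp4* the 2 blue triangles (Pdx-Cre ALDH-) stand above all other points, whereas *Npy* is lower in 4 of 5 ALDH+ libraries with both cre drivers represented.

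Insulin, IGF and mTOR signalling genes had a median of 0.10 over 43 genes. At the unadjusted mark 2 were higher and 4 lower (4.6% and 6.23% of all genes). The higher members were both S6 kinase genes, *Rps6kb2* and *Rps6kb1* (the second named after its values were seen). *Eif4ebp1*, a repressor of translation that mTOR switches off, was at 88.8, 64.6, 109.9, 81.1 and 85.6 FPKM across the ALDH- libraries, against 58.2, 56.7, 63.3, 58.3 and 59.1 FPKM across the ALDH+ libraries. The ALDH+ libraries lay in a narrow range below all ALDH- libraries (log2 fold change -0.50, SE 0.15, adjusted p = 0.34). *Akt1s1*, *Pdpk1* and *Grb10* were the other lower members and were also named after their values were seen. Classic Foxo targets and the Foxo genes had a median of 0.040 over 35 genes, with 1 higher and 1 lower (4.6% and 6.23% of all genes). *Klf4*, a transcription factor of stem and epithelial cells, showed a log2 fold change of 1.05 (adjusted p = 0.38), and *Cited2*, a transcriptional coregulator, of -0.50 (adjusted p = 0.42). The retinoid list, which holds *Aldh1a3* itself, had a median of 0.22 over 24 genes. Of these 2 were higher and 3 lower (4.6% and 6.23% of all genes). *Dhrs3*, *Rdh11* and *Rdh10*, named after their values were seen, are oxidoreductases that convert retinol and retinaldehyde, and *Rdh10* had log2 fold changes of -0.27 in RIP-Cre and -1.68 in Pdx-Cre libraries.

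In the fit of all 10 libraries, lists of energy and lipid metabolism outside the respiratory complexes had medians below that of all genes, -0.007. The sign of the median turned for glycolysis without ALDH- replicate 5 and ALDH+ replicate 3 (0.095), and for fatty acid oxidation in RIP-Cre libraries (0.038) and without ALDH- replicate 5 and ALDH+ replicate 3 (0.0060). Citric acid cycle and shuttle genes had a median of -0.21 over 28 genes. At the unadjusted mark 0 were higher and 4 lower (4.6% and 6.23% of all genes). *Dlst*, a subunit of the 2-oxoglutarate dehydrogenase complex, was at 29.6, 35.98, 34.4, 65.98 and 35.9 FPKM across the ALDH- libraries, against 20.3, 28.5, 22.5, 25.2 and 31.7 FPKM across the ALDH+ libraries (log2 fold change -0.58, SE 0.18, adjusted p = 0.34). ALDH- replicate 4 was the highest library and the groups overlapped. *Got1*, an aminotransferase of the malate-aspartate shuttle, showed a log2 fold change of -0.47 (adjusted p = 0.38). The other lower members, *Gpd1* and *Gpd2*, run the glycerol phosphate shuttle and were named after their values were seen.

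For mitochondrial biogenesis, dynamics and import the median was -0.25 over 45 genes, with 0 higher and 4 lower (4.6% and 6.23% of all genes). The lower count was 6 without both replicate 5 libraries (4.57% of all genes) and 4 without ALDH- replicate 5 and ALDH+ replicate 3 (3.65%). After the length trend was removed it was 2 (4.37%). The median was -0.28 in RIP-Cre and -0.012 in Pdx-Cre libraries. *Tomm5*, part of the outer membrane import pore, showed a log2 fold change of -0.61 (adjusted p = 0.38). *Timm9* and *Mff* were also lower at the mark and were named after their values were seen. Fatty acid oxidation genes had a median of -0.093 over 41 genes, with 1 higher and 3 lower (4.6% and 6.23% of all genes). *Hadh*, a β-oxidation enzyme whose loss raises insulin release, was at 234, 199.8, 239.7, 123 and 108 FPKM across the ALDH- libraries, against 163, 202, 135, 77.7 and 60.1 FPKM across the ALDH+ libraries (log2 fold change -0.55, SE 0.15, adjusted p = 0.32), with lower values in both Pdx-Cre libraries of each group. *Eci1*, an isomerase for unsaturated fatty acids, was the higher member at 0.87 (adjusted p = 0.40).

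Lipid synthesis genes had a median of -0.15 over 36 genes, with 0 higher and 4 lower, 3 of them without overlap (6.23% and 1.11% of all genes). Without both replicate 5 libraries 1 was lower (4.57% of all genes), and without ALDH- replicate 5 and ALDH+ replicate 3 it was 2 (3.65%). *Fdft1*, squalene synthase, was at 45.7, 68.8, 49.02, 43.6 and 62.9 FPKM across the ALDH- libraries, against 38.9, 34.02, 40.96, 34.996 and 34.1 FPKM across the ALDH+ libraries, without overlap (log2 fold change -0.52, SE 0.18, adjusted p = 0.36). *Dhcr7*, which carries out the final reduction of cholesterol synthesis, was at 9.82, 7.45, 7.78, 9.39 and 8.61 FPKM across the ALDH- libraries, against 4.25, 7.12, 5.37, 6.50 and 4.71 FPKM across the ALDH+ libraries. Those groups did not overlap (log2 fold change -0.54, SE 0.21, adjusted p = 0.39). *Fads1* and *Elovl4*, a desaturase and an elongase of fatty acids, were the other 2 and were named after their values were seen. Glycolysis and glucose entry genes had a median of -0.13 over 37 genes, with 1 higher and 2 lower (4.6% and 6.23% of all genes). *Gpi1* and *Pgd*, enzymes of glycolysis and of the pentose phosphate pathway, had log2 fold changes of -0.45 and -0.52 (adjusted p = 0.38 and 0.44).

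Antioxidant genes had a median of -0.24 over 38 genes, with 0 higher and 7 lower at the unadjusted mark. *Mt2*, a metallothionein, was at 1075, 1252, 1268, 1522 and 3796 FPKM across the ALDH- libraries, against 907, 950.1, 547, 1182 and 1384 FPKM across the ALDH+ libraries (log2 fold change -0.72, SE 0.26, adjusted p = 0.38). ALDH- replicate 5 was the highest library. *Gpx4*, which reduces lipid peroxides, was at 30.8, 34.97, 37.04, 38.1 and 36.02 FPKM across the ALDH- libraries, against 28.5, 25.2, 17.001, 32.9 and 24.4 FPKM across the ALDH+ libraries (log2 fold change -0.47, SE 0.17, adjusted p = 0.38). The count of 7 (6.23% of all genes) became 5 without both replicate 5 libraries (4.57%), 2 without ALDH- replicate 5 and ALDH+ replicate 3 (3.65%) and 2 after the length trend was removed (4.37%).

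Among genes of protein synthesis and breakdown, translation factors had a median of -0.15 over 45 genes. At the unadjusted mark 1 was higher and 10 were lower (4.6% and 6.23% of all genes). *Eef1a1*, which brings aminoacyl-tRNA to the ribosome, was at 1083, 1214, 1274, 1296 and 1609.8 FPKM across the ALDH- libraries, against 847, 890.5, 651, 1032 and 987 FPKM across the ALDH+ libraries. All ALDH+ libraries were below all ALDH- libraries (log2 fold change -0.55, SE 0.16, adjusted p = 0.34). *Eif1*, a factor for start codon selection, was at 292, 334, 277, 329 and 283 FPKM across the ALDH- libraries, against 199, 203, 212, 242 and 237 FPKM across the ALDH+ libraries, again without overlap (log2 fold change -0.46, SE 0.13, adjusted p = 0.32). The lower count became 3 without both replicate 5 libraries and 3 without ALDH- replicate 5 and ALDH+ replicate 3, where 4.57% and 3.65% of all genes were lower. It was 8 after the length trend was removed (4.37% of all genes).

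Proteasome subunits had a median of -0.21 over 40 genes, with 0 higher and 8 lower (4.6% and 6.23% of all genes). Of the 40, 4 had a positive log2 fold change, against 5523 of the 11215 genes tested. Proteasome genes were short, with a median log2 length relative to the median gene of -1.24. Their median log2 fold change was -0.075 after the length trend was removed. *Psmc5*, an ATPase of the regulatory particle, was at 143, 146, 139, 133 and 142 FPKM across the ALDH- libraries, against 107, 129, 93.5, 120.1 and 93.8 FPKM across the ALDH+ libraries, without overlap (log2 fold change -0.37, SE 0.14, adjusted p = 0.38). *Psmd2*, a scaffold of the same particle, showed a log2 fold change of -0.46 with overlapping groups (adjusted p = 0.36). The lower count of 8 became 4 without both replicate 5 libraries, 0 without ALDH- replicate 5 and ALDH+ replicate 3, and 3 after the length trend was removed. The shares of all genes that were lower were then 4.57%, 3.65% and 4.37%. Genes of the unfolded protein response had a median of -0.10 over 43 genes, with 2 higher and 2 lower (4.6% and 6.23% of all genes). *Sec61b*, a subunit of the translocation channel, was at 309, 243, 361, 402 and 551 FPKM across the ALDH- libraries, against 225, 240.3, 139, 290.2 and 257 FPKM across the ALDH+ libraries (log2 fold change -0.67, SE 0.19, adjusted p = 0.32), and *Derl3*, a factor of protein export from the endoplasmic reticulum for degradation, had 1.27 (adjusted p = 0.38). Lysosome and autophagy genes had a median of -0.20 over 46 genes, with 0 higher and 5 lower (4.6% and 6.23% of all genes). Without ALDH- replicate 5 and ALDH+ replicate 3, 3 were lower (3.65% of all genes). The tetraspanin gene *Cd63* and the autophagosome gene *Gabarap* had log2 fold changes of -0.61 and -0.41 (adjusted p = 0.37 and 0.38), and *Lamp1*, *Glb1* and *Sqstm1* were the others, named after their values were seen.

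Markers of precursor or dedifferentiated cells had a median of 0.10 over 17 genes tested of 35 listed. At the unadjusted mark 1 was higher and 0 lower (4.6% and 6.23% of all genes). The sign of the median of these markers turned in 6 settings, among them Pdx-Cre libraries alone (-0.17) and the removal of the length trend (-0.011). It also turned on leaving out both replicate 5 libraries (-0.0068) or ALDH- replicate 5 and ALDH+ replicate 3 (-0.085). *Cd44*, an adhesion receptor, was at 3.04, 7.85, 4.76, 19.4 and 7.58 FPKM across the ALDH- libraries, against 10.8, 8.53, 18.4, 19.3 and 27.4 FPKM across the ALDH+ libraries, with overlapping groups (log2 fold change 1.04, SE 0.30, adjusted p = 0.33). *Cd81*, a tetraspanin of immature β cells, showed a log2 fold change of -0.35 (adjusted p = 0.55). *Neurog3*, the factor that starts endocrine differentiation, did not exceed 2.35 FPKM in any knockout library and was below the filter, as were *Sox9*, *Pou5f1* and *Nanog* at no more than 0.0700 FPKM. The genes that mature β cells normally keep silent had a median of -0.56 over 7 genes. Of these 0 were higher and 1 lower (4.6% and 6.23% of all genes). Over the alternatives this median ran from -0.63 to -0.071, and it was -0.27 without both replicate 5 libraries and -0.25 without ALDH- replicate 5 and ALDH+ replicate 3. The lower one was *C1qbp*, a mitochondrial matrix protein, at -0.56 (adjusted p = 0.38), and *Zyx*, a focal adhesion gene, was at -0.75 without reaching the mark (adjusted p = 0.48).

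Proliferation genes had a median of 0.061 over 23 genes, with 2 higher and 3 lower at the unadjusted mark (4.6% and 6.23% of all genes). *Pcna*, the sliding clamp of DNA replication, was at 35.6, 53.98, 42.7, 38.7 and 52.98 FPKM across the ALDH- libraries, against 31.2, 29.9, 19.3, 26.8 and 30.1 FPKM across the ALDH+ libraries. The groups did not overlap (log2 fold change -0.67, SE 0.19, adjusted p = 0.33). *Ccna2*, cyclin A2, was at 0.742, 2.14, 0.277, 0.637 and 0.165 FPKM across the ALDH- libraries, against 2.84, 3.86, 3.01, 2.09 and 1.44 FPKM across the ALDH+ libraries, and had the opposite sign (log2 fold change 1.09, SE 0.32, adjusted p = 0.34). Immediate early and heat shock genes had a median of 0.14 over 34 genes. Of these 3 were higher and 1 lower (4.6% and 6.23% of all genes), the early response gene *Fos* at 0.54 (adjusted p = 0.38) among them. Inflammation genes had a median of 0.083 over 47 genes, with 3 higher and 2 lower (4.6% and 6.23% of all genes). The higher ones included *Nfkbiz*, a nuclear regulator of NF-κB, at 0.53 and *Irf3*, a factor of the interferon response, at 0.50 (adjusted p = 0.36 and 0.43).

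Of transcripts of cells outside the endocrine islet, endothelial and stromal ones were low, and acinar ones were highest in replicate 5. The duct list, which includes *Epcam*, a gene also of islets, summed to at least 452 FPKM in every library. None of the acinar (17), duct (10), endothelial (1), leukocyte (5) or stromal (2) markers tested reached the unadjusted mark. The 30 acinar markers summed to 28.2 to 508 FPKM in ALDH- libraries and 24.7 to 911 FPKM in ALDH+ libraries. Replicate 5 held the highest sum of both groups, with the chymotrypsinogen gene *Ctrb1* at 331 and 601 FPKM against at most 1.58 FPKM in the other 8 libraries. The 23 leukocyte markers summed to 33.0 to 170.4 FPKM and 25.7 to 86.4 FPKM, mostly through *Cd68*, a lysosomal protein of macrophages, which was at 31.8, 27.1, 20.004, 49.6 and 148 FPKM across the ALDH- libraries, against 18.99, 22.7, 20.4, 34.4 and 59.6 FPKM across the ALDH+ libraries (log2 fold change -0.54, SE 0.29, adjusted p = 0.54). *Ptprc*, which defines leukocytes, did not exceed 0.0193 FPKM. The 15 duct markers summed to 452 to 1062 FPKM and 469.6 to 1262 FPKM, and *Epcam*, an epithelial surface gene also of islets, showed a log2 fold change of -0.28 and *Muc1* of 0.76 (adjusted p = 0.52 and 0.50). The duct genes *Krt19*, *Sox9*, *Cftr* and *Muc1* together summed to only 1.86 to 14.8 FPKM in ALDH- and 1.95 to 21.3 FPKM in ALDH+ libraries. *Sox9* did not exceed 0.0451 FPKM and *Cftr* 0.600 FPKM. Endothelial markers summed to at most 6.07 FPKM and stromal markers to at most 7.39 FPKM in any library. Log2 fold changes were -1.20 for the acinar protease *Cela1*, 0.42 for *Fcer1g* of leukocytes, 0.18 for *Esam* of endothelium, and 0.084 for *Col4a1* of stroma (adjusted p = 0.59 or above). The part of these transcripts in the other differences was not tested.

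**Figure D4:**
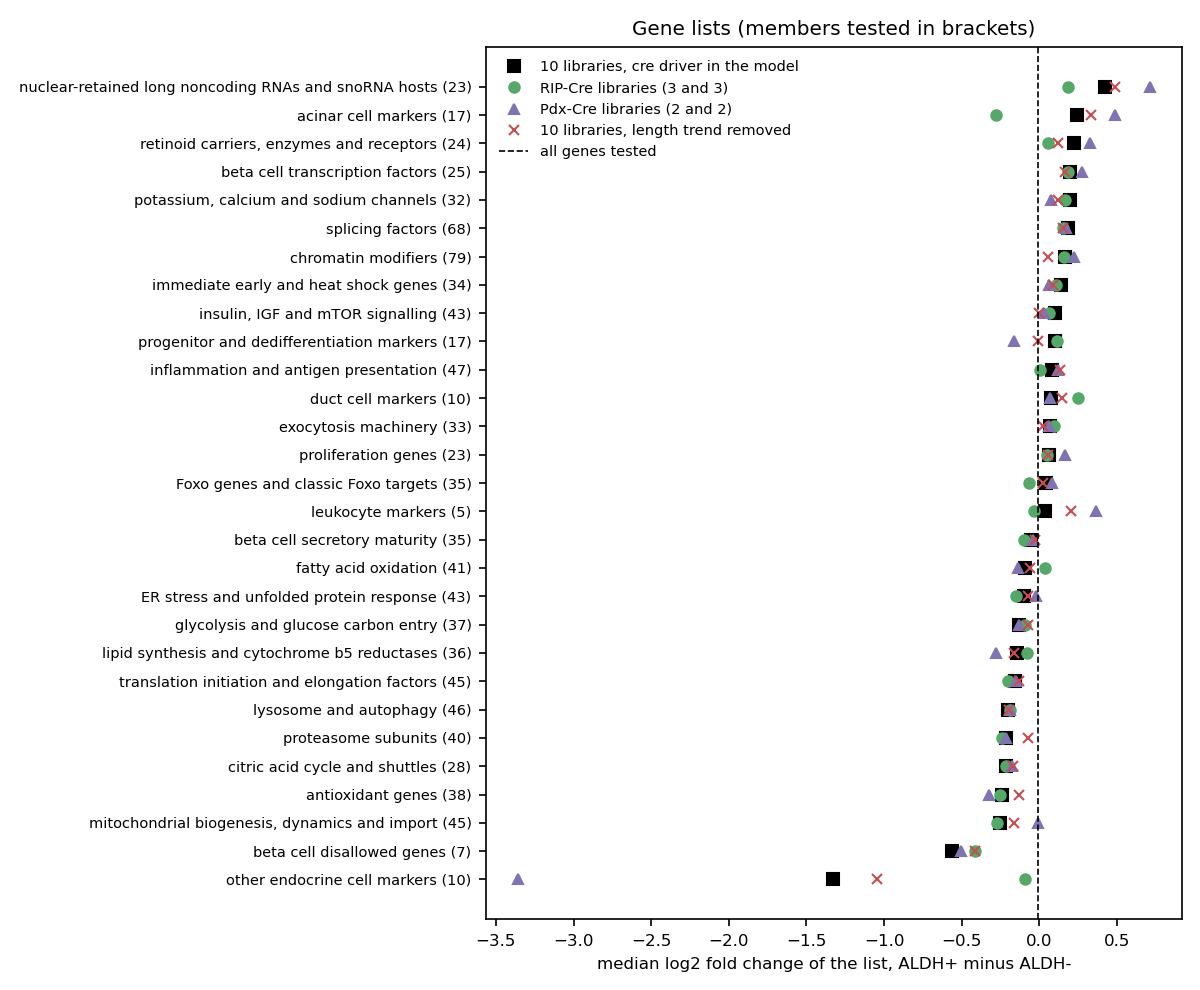
Median log2 fold change (ALDH+ minus ALDH-) of each gene list with at least 5 members tested, in the 10-library fit (black squares), in RIP-Cre (green circles) and Pdx-Cre libraries alone (purple triangles) and after a trend with gene length was removed (red crosses), with the median of all genes as a dashed line. Black squares lie within 0.3 of the line apart from long noncoding RNAs at 0.42, disallowed genes at -0.56 and other endocrine markers, which are at -1.33 over all libraries, -0.090 in RIP-Cre and -3.36 in Pdx-Cre libraries.

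Gene length moved with the comparison. Relative length was worked out for 11146 genes from fragments per FPKM. Genes in the shortest bin (191 genes) had a median log2 fold change of -0.46 and those in the longest (145 genes) of 0.24, with a rise in every bin between them. Over all of these genes Spearman's rho between log2 fold change and length was 0.27, a description across genes of the same 10 libraries. The slope of a library's deviation from the gene mean on log2 length was steepest in ALDH- replicate 5, at -0.15, and in ALDH+ replicate 3, at 0.16. It lay between -0.046 and 0.030 in the other 8 libraries, whose groups overlapped. After a lowess curve on length was subtracted from each library, *Aldh1a3* remained the 1 gene past the threshold, at a log2 fold change of 3.72, and 545 genes were higher and 490 lower at the unadjusted mark. The share of higher genes among those at the mark thus moved from 42.5% to 52.7%. *Rps6kb2*, *Neat1* and *Pnn* then had log2 fold changes of 1.67, 1.57 and 0.81, and of the 10 genes ranked first on each side 0 of the higher and 6 of the lower, named above, became over 1.5 times smaller. The list medians moved from 0.17 to 0.057 for chromatin modifiers, from -0.21 to -0.075 for proteasome subunits and from 0.19 to 0.15 for splicing factors.

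**Figure D5:**
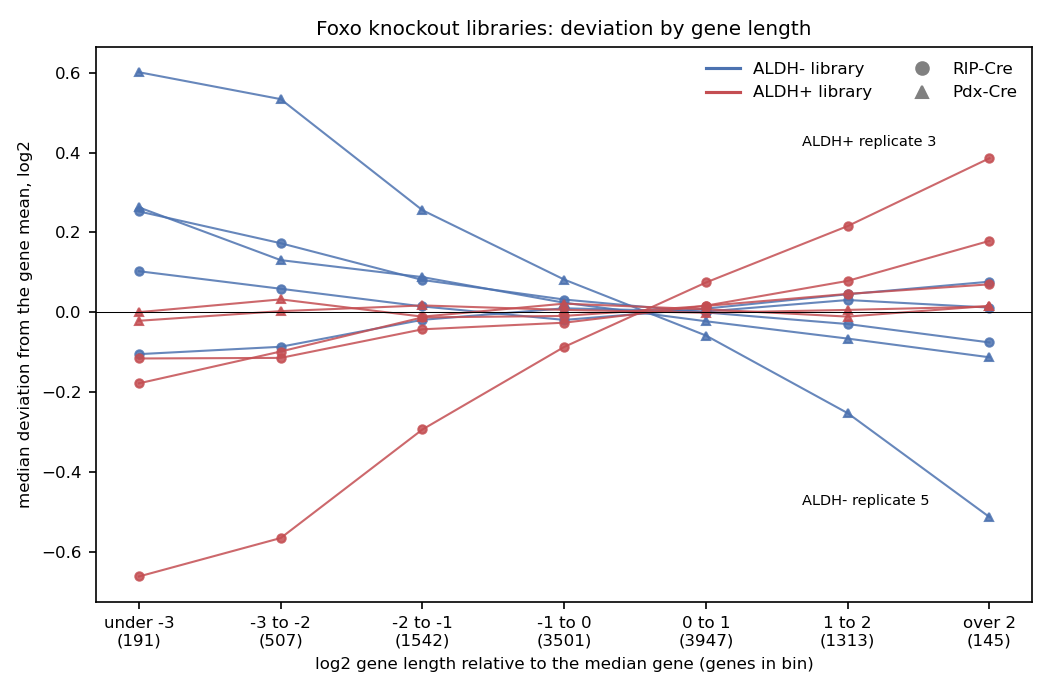
Median deviation of each library's log2 values from the gene means (vertical axis) in 7 bins of log2 gene length relative to the median gene (horizontal axis, number of genes below each bin), ALDH- in blue, ALDH+ in red, RIP-Cre as circles and Pdx-Cre as triangles. ALDH- replicate 5 runs from 0.60 in the shortest genes to -0.51 in the longest and ALDH+ replicate 3 from -0.66 to 0.39, while the other lines stay closer to 0.

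The last comparison asked whether the ALDH difference in knockout cells was unlike that in the controls labelled heterozygous. Over all 15 libraries 0 of 11253 genes passed (limma interaction contrast, 0% of genes tested), against 476 at an unadjusted p under 0.05. With 2 ALDH+ and 3 ALDH- control libraries, a p that misses the threshold does not show that the differences are alike. The 5 genes with the smallest p were *Vps36*, *Hist1h2bm*, *Rce1*, *Fis1* and *Ahsa1*. *Vps36*, which sorts membrane proteins to lysosomes, came closest, with a difference of 2.30 on the log2 scale (standard error 0.35, adjusted p = 0.08). In knockout cells alone the log2 fold changes of *Vps36*, *Rce1*, *Fis1* and *Ahsa1* were 0.34, 0.27, -0.13 and 0.21, with overlapping groups. That of *Hist1h2bm* was 1.01, without overlap. *Hist1h2bm*, a replication-dependent histone gene, was at 4.66, 2.001, 2.12, 3.52 and 3.98 FPKM across the ALDH- libraries, against 7.15, 8.13, 9.66, 4.96 and 6.98 FPKM across the ALDH+ libraries in knockout cells, from a median of 8 fragments per library. For *Rps6kb2* the difference between genotypes was -0.092 (standard error 0.39) and for *Neat1* -0.87 (standard error 0.59) on the log2 scale.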

How the data were processed

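Poly-A RNA of sorted RFP+ islet cells was sequenced, and the authors deposited 1 gene table per library with FPKM and its confidence bounds, in the layout of Cufflinks. The submitters' processing notes name bcl2fastq 1.8.4, TopHat2 2.0.4 and mm9. The quantifier's version is not given in the sources used here. The study tested counts with DESeq, which these FPKM columns do not hold. Each table lists 23699 entries. Symbols listed more than once (248, on 712 lines) and 51 lines whose estimate failed or was too deep in some knockout library were left out, which left 22936 genes.

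Libraries were brought to one scale with a trimmed mean of M-values without weights (30% of M and 5% of A trimmed on each side), and log2(FPKM + 1) was fitted in limma 3.58.1 (R 4.3.3) with a variance trend and terms for ALDH group and cre driver. The fit took the 10 knockout libraries and genes whose rescaled FPKM averaged at least 1. Tests were two-sided with Benjamini-Hochberg adjustment over all genes tested, at a threshold of 0.05. Fold changes are on the log2(FPKM + 1) scale and understate those of low genes. Interaction terms tested differences between cre drivers (10 libraries) and genotypes (15 libraries). Columns of other samples numbered 0. Fragments were worked out from interval widths, taken as a Poisson error, and of the values below 500 fragments 66.4% were whole to within 0.02. This depth covers counting error only.

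Libraries with equal replicate numbers were not taken as pairs. The procedure was tested on simulated data. Named genes were the 10 with the smallest p in each direction outside *Aldh1a3* and the families, up to 4 members past the threshold of each of 31 gene lists or otherwise the 2 with the smallest p, the 5 with the smallest p of each interaction, and *Aldh1a3* and the Foxo genes. Some genes that this rule names are not reported here. Members and lists were chosen with earlier results of these data known. Coordinates are those in the tables. Alternatives covered the pseudocount, filter, scaling, model, length, cre driver and each library in turn.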

Additional observations from a re-analysis of the deposited data

Results flagged for a closer look

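Among 164 groups of 5 knockout libraries (each named gene with any spread, ALDH- and ALDH+ apart), 15 had 1 library far from the other 4 by Dixon's criterion on log2(FPKM + 1). Chance alone flags about 5% of groups. A group with 4 libraries at 0 and 1 above 0 is flagged whatever the value. This was so for *Foxo4* in both groups and for *2400009B08Rik* in ALDH+ cells, with 1 to 2 fragments in the flagged library.

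In ALDH+ replicate 3, *Rps6kb2* was at 24.8 FPKM against 14.1 to 15.3 FPKM in the other ALDH+ libraries, *Tomm5* at 35.4 FPKM against 53.4 to 57.2 FPKM, and *Cd63* at 138 FPKM against 228 to 274 FPKM. In ALDH- replicate 5, *Mt2* was at 3796 FPKM against 1075 to 1522 FPKM in the other ALDH- libraries and *Gabarap* at 556 FPKM against 341 to 368 FPKM. In the same library *Foxo1* was at 0.0925 FPKM against 2.45 to 4.24 FPKM, and *Foxo4* at 0.0669 FPKM where the others were listed at 0.

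Further single libraries stood apart in 8 groups. ALDH+ replicate 1 had *2010003O02Rik* at 49.97 FPKM against 19.7 to 24.4 FPKM, *Rce1* at 6.37 FPKM against 10.1 to 11.5 FPKM, and *Foxo4* at 0.0329 FPKM where the others were listed at 0. ALDH+ replicate 2 had *2400009B08Rik* at 1.23 FPKM where the others were listed at 0, and ALDH+ replicate 4 had *Klf4* at 7.61 FPKM against 2.13 to 2.88 FPKM. ALDH- replicate 1 had *Vps36* at 14.8 FPKM against 9.72 to 10.6 FPKM, ALDH- replicate 3 had *C1qbp* at 23.8 FPKM against 43.8 to 48.5 FPKM, and ALDH- replicate 4 had *Dlst* at 66.0 FPKM against 29.6 to 36.0 FPKM.

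The ALDH effect differed between cre drivers past the threshold in 3 genes, where the difference (Pdx-Cre minus RIP-Cre) was -5.26 on the log2 scale for *Ghrl*, 5.54 for *Scarna3b* and 6.58 for *Snora2b*. The last 2 rest on 1 fragment in each of 2 libraries.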

How the results depend on the processing

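The count of 1 gene past the threshold was 0 with a pseudocount of 0.1, with no filter on low values, with RIP-Cre libraries only and without ALDH- replicate 5 and ALDH+ replicate 3. It was 2 with all 15 libraries (adding *Rps6kb2*), 2 with the replicate block and 2 with the block and the length trend removed (adding *Neat1* at adjusted p of 0.039 and 0.027), 2 without both replicate 5 libraries (adding *Npy*), and 9 with Pdx-Cre libraries only. Those 9 did not include *Aldh1a3*. They were *Gcg*, *Ghrl*, *Pyy*, *Rbp4* and small RNAs, among them *Snora2b* and *Scarna3b*. Leaving out single libraries gave 0 to 2. The 3 genes that differed between cre drivers were 0 with a pseudocount of 0.1, 7 without the filter, 1 with the replicate block (*Snora2b*, with *Ghrl* at an adjusted p of 0.057) and 3 to 9 when single libraries were left out. The 0 genes that differed between genotypes were 16 without the filter. With a pseudocount of 0.1 or FPKM as deposited they stayed 0. The causes were not tested.

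Correlations of deviations between same-numbered libraries were 0.04 to 0.091 with RIP-Cre and 0.21 with Pdx-Cre, not all above 0.1. Every library correlated best with its own number. With 2 Pdx-Cre libraries in each group the deviations mirror each other, so their correlations of 0.21 and -0.21 are a single result. The block therefore remains a hint from the data. Settings without both replicate 5 libraries, without ALDH- replicate 5 and ALDH+ replicate 3, and with block and length trend together were chosen after seeing the data. Of 1857 values of named genes under the alternatives, 1851 kept their direction and 160 moved by over 1.5 times. Few named genes passed the threshold in any setting, so the side of the threshold says little about them. The 6 that changed sign concerned 3 genes that did not pass the threshold. *Col4a1* was -0.038 with the length trend removed, with or without the replicate block, and between -0.022 and 0.17 when single libraries were left out. That range was -0.013 to 0.37 for *Esam* and -0.54 to 0.14 for *Foxo1*. The medians of 11 of 31 gene lists changed sign in at least 1 alternative. List counts of up to 3 at the unadjusted mark moved by at most 3 under the block, the length correction and both settings without 2 libraries. Depth limits genes of few fragments.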

Other observations

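*Xist*, transcribed from the inactive X chromosome, was at 54.0 FPKM in ALDH- replicate 5 and 214 FPKM in ALDH+ replicate 5, and did not exceed 0.293 FPKM in the other 8 knockout libraries. Both libraries numbered 5 also held most acinar transcripts of their groups. Neither the sex of the mice nor the animals behind a number are given in the labels.

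*Slc2a2* was not the only β-cell gene that followed the cre driver. *Ucn3* was at 418.2 to 795.3 FPKM in the 6 RIP-Cre libraries and 69.9 to 302 FPKM in the 4 Pdx-Cre libraries, and *Nkx6-1* at 57.2 to 75.9 FPKM and 30.5 to 41.1 FPKM. *Mafa*, a factor of mature β cells, was at 2.32 to 13.9 FPKM and 0.434 to 1.64 FPKM. No test of the driver itself was made. *Iapp*, the amylin gene, was at 42520.5 FPKM in ALDH+ replicate 3 and at 87147.9 to 114338 FPKM in the other 9 libraries.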
